A study of Mus musculus with 6 samples.

Results

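The tumor necrosis factor (TNF) superfamily was examined in microglia with and without Bhlhe41, a transcriptional repressor. Members were the array probes whose transcript accession maps to a gene symbol starting with Tnfsf or Tnfrsf, or to *Cd27*, *Cd40*, *Cd40lg*, *Cd70*, *Fas*, *Fasl*, *Ltbr*, *Lta* or *Ltb*. These were 55 of 56605 probes and 40 of 23462 named genes, and the rule uses names alone. *Tnf* itself lies outside this naming rule and was taken with the pathway genes.

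The 6 RNA samples were labeled with Cy3 and hybridized to 6 single-color Agilent arrays, 3 for each genotype. Control samples came from Bhlhe41 dTomato-Cre/+ mice (B41HET) and knockout samples from Bhlhe41 dTomato-Cre/dTomato-Cre mice (B41KO), all about 3 months old. The dTomato-2A-Cre-polyA cassette sits ahead of the Bhlhe41 start codon and is driven by the Bhlhe41 promoter, so the controls also carried 1 reporter and Cre allele, and the allele was constitutive. No wild-type sample was on these arrays. Live CD45low CD11b+ Cx3cr1+ cells were sorted after a Percoll gradient, with the cells of several mice combined for each sample.

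TNF superfamily ligands are mostly membrane proteins that act as trimers, on the cell surface or after shedding. Their receptors fall into those with a death domain, which can assemble caspase-activating complexes, those that recruit TRAF adaptors to activate NF-kB and MAP kinases, and decoys that bind a ligand without a full signaling tail. Microglia are a main source of TNF in the brain and express both TNF receptors.

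On these arrays 39654 to 42719 probes were well above background in a sample, and no spot was saturated. All 12 microglia markers were well above background on all 6 arrays, and 1 of them, *Fcrls*, was called lower in B41KO. Both *Bhlhe41* probes read 7.40 to 7.96 and 7.65 to 8.56 on the log2 scale over the 6 samples, with log2 fold changes of 0.33 and 0.38 that missed the threshold (limma adjusted p = 0.204 and 0.330). As the allele is described as an insertion and not as a deletion, these probes do not check the genotype labels. Values are log2 of the quantile-normalized signal, fold changes are B41KO minus B41HET, and a probe was called when its limma p-value, adjusted over all probes, was 0.05 or less and its log2 fold change was at least 0.5 in size. With 3 against 3, the smallest p an exact permutation test can give is 0.1. Levels of different probes were compared only among the probes of a gene, to pick the brightest, and within the marker sums.

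Among the 55 member probes, 7 were called, 6 of them lower and 1 higher in B41KO. That is 12.7% of the member probes, beside 5.09% of all probes tested, of which 1.72% were higher and 3.38% lower. Taking the brightest probe for each gene, 6 of 40 genes were called (5 lower, 1 higher), or 15.0%, beside 5.49% of all named genes (4.05% lower and 1.44% higher). Of the 39 member probes well above background on all 6 arrays, 7 were called (17.9%), beside 6.29% of all such probes (4.24% lower and 2.05% higher). By adjusted p alone, 9 member probes passed, 7 lower and 2 higher, beside 6.75% of all probes (4.36% lower and 2.39% higher). The genotypes did not overlap for 16 member probes lower and 6 higher in B41KO, while 29.6% of all probes did not overlap (15.3% lower and 14.4% higher). By gene, 13 lower and 4 higher did not overlap, beside 32.1% of all genes (18.1% lower and 14% higher). The median log2 fold change of the member probes was -0.14, beside 0.01 over all probes. It was -0.04 beside 0.13 when each array was shifted to its 75th percentile, and -0.03 beside 0.0048 with normexp background correction. With any 1 of the 6 samples left out, 1 to 4 member probes were called (1.82% to 7.27%), beside 1.41% to 2.69% of all probes. The called genes were the receptors *Tnfrsf1b*, *Tnfrsf21* and *Tnfrsf23*, the ligands *Ltb* and *Tnfsf12*, all lower, and *Tnfsfm13*, higher. A dimmer probe of *Tnfrsf13b* was called lower as well.

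**Figure D1:**
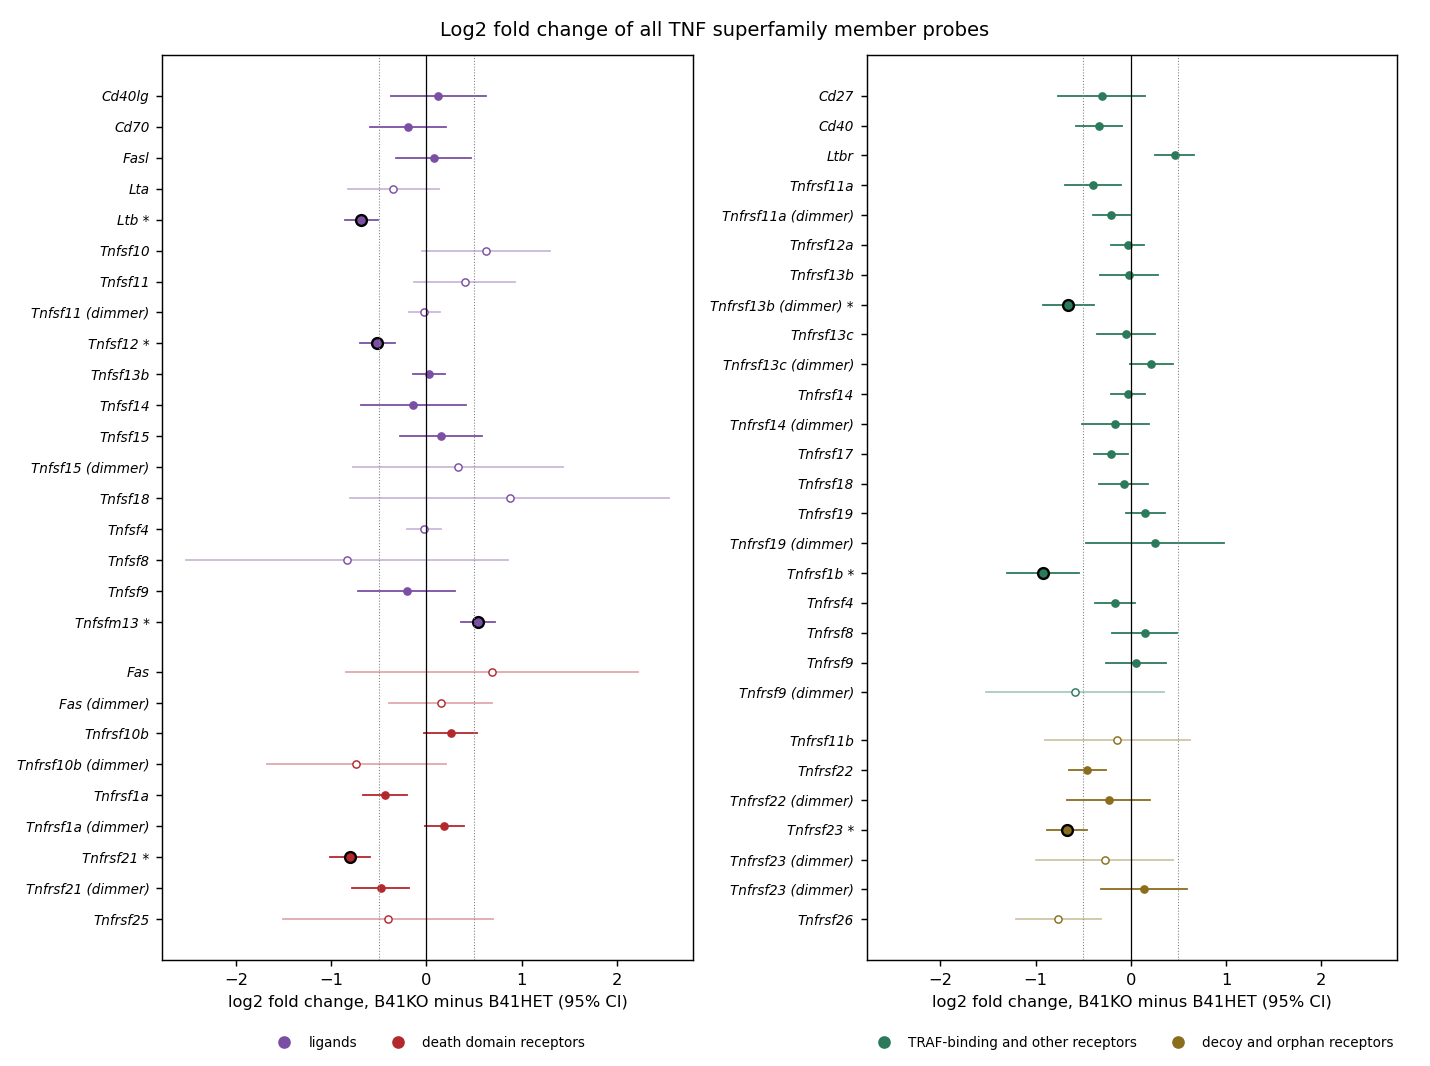
Log2 fold change of all 55 member probes, B41KO minus B41HET, with 95% confidence intervals from limma, grouped by role. Stars and black rings mark the 7 called probes, open pale circles mark probes not well above background on all 6 arrays, and dotted lines stand at a log2 fold change of 0.5 in either direction. The widest intervals belong to dim probes such as those of *Tnfsf18*, *Tnfsf8* and *Fas*.

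Bhlhe41 is a basic helix-loop-helix protein that binds the E-box CACGTG, a sequence that reads the same on both strands. In RefSeq promoter windows of 300 bases (GRCm38.p6, mostly upstream and running a short way past the start), 30 of the 40 member genes matched, and 6 of these 30 (20%) held CACGTG, beside 8.09% of 27025 genes with a window. Of the 7 genes with a called probe, 6 had a window and only *Tnfrsf21* held the motif. *Tnfsf12* had no entry. A match is a description of the letters and not of binding. The windows below are shown 5' to 3' on the gene's strand with the motif in capitals: *Tnfrsf21*, called lower with the motif next to its start, *Ltbr*, past the adjusted p but under the fold threshold, with the motif further upstream, *Ltb*, called lower, and *Tnfsfm13*, called higher, both without the motif.
Tnfrsf21, chr17:43016305-43016604, plus strand: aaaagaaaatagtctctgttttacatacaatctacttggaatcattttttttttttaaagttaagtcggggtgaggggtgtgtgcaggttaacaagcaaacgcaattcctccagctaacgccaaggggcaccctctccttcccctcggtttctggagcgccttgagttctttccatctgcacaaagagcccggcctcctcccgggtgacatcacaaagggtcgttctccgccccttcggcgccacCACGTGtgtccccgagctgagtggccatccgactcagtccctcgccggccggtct
Ltbr, chr6:125313836-125314135, minus strand: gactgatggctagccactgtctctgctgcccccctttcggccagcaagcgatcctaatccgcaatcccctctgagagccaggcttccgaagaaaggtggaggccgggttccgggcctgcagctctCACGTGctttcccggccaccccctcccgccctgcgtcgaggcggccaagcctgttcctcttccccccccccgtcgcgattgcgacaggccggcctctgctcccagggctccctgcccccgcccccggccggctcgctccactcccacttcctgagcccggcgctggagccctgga
Ltb, chr17:35194257-35194556, plus strand: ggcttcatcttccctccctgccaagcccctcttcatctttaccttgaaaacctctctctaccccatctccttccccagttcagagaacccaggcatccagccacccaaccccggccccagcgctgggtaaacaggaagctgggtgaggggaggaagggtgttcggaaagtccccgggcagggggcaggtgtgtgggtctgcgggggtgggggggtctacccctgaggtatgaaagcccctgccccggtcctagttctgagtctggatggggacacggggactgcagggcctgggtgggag
Tnfsfm13, chr11:69696049-69696348, minus strand: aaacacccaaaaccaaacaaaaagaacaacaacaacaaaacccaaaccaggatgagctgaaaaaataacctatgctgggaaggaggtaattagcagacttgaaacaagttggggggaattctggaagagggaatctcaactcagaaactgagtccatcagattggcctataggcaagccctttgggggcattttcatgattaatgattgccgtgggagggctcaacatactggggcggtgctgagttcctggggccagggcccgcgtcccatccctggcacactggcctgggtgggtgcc

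The other members with the motif were *Fas*, *Tnfrsf19*, *Tnfrsf4* and *Tnfrsf8*, none of them called, and the 30 bases around each motif are given for comparison.
Fas, chr19:34290537-34290566, plus strand: aaaagtgacataCACGTGttcaaagcgatt
Tnfrsf19, chr14:61038103-61038132, minus strand: gcctggctggggCACGTGaggttacctgga
Tnfrsf4, chr4:156013609-156013638, plus strand: aatgcctgtgtgCACGTGtgtgtttctttg
Tnfrsf8, chr4:145315266-145315295, minus strand: gagtcatctctgCACGTGgtggccccttct
Counted from the start, the first base of the motif lay at -5 in *Tnfrsf21*, -74 in *Tnfrsf4*, -110 in *Fas*, -119 in *Tnfrsf8*, -125 in *Ltbr* and -133 in *Tnfrsf19*.

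Of 16 ligand genes, 3 were called and 10 were well above background on all arrays. *Ltb* encodes lymphotoxin beta, which joins lymphotoxin alpha on the cell surface to engage the lymphotoxin beta receptor. Its signal was 7.32, 7.42 and 7.37 in the 3 B41HET samples and 6.73, 6.64 and 6.68 in the 3 B41KO samples. Every knockout sample lay below every control sample, with 0.59 between the nearest. This gave a log2 fold change of -0.69 (SE 0.07, limma adjusted p = 0.00858), a level 1.61-fold lower. Without B41HET replicate 2 its adjusted p was 0.0501.

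*Tnfsf12* encodes TWEAK, a ligand linked to tissue repair and inflammation. It read 12.48, 12.55 and 12.38 in B41HET and 11.97, 11.92 and 11.96 in B41KO. The groups did not overlap, and the nearest samples lay 0.41 apart. Limma gave a log2 fold change of -0.52 (SE 0.07, limma adjusted p = 0.0208), or 1.43-fold lower, close to the fold threshold. It was called with B41HET replicate 3 left out and not with any of the other 5 samples left out, where adjusted p reached 0.0852.

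*Tnfsfm13* is the readthrough transcript of *Tnfsf12* and its neighbor *Tnfsf13*, and is known to encode a fusion of the TWEAK and APRIL proteins. The reference gives it the same start as *Tnfsf12*, and no probe was named for *Tnfsf13* alone. Its probe read 7.97, 7.94 and 7.83 in B41HET and 8.48, 8.45 and 8.45 in B41KO. All 3 knockout samples were above all controls, by 0.47 at the nearest. Between genotypes the log2 fold change was 0.54 (SE 0.07, limma adjusted p = 0.0164), or 1.46-fold higher, and it was lost with any 1 of the 6 samples left out (adjusted p 0.0523 to 0.0729). Whether the probe also reads *Tnfsf13* transcripts was not tested, as probe sequences are not used here.

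*Tnfsf13b* (BAFF, a B-cell survival factor) was well measured and nearly level. It read 10.14, 10.09 and 10.13 in B41HET and 10.19, 10.15 and 10.08 in B41KO, with a log2 fold change of 0.03 (95% CI -0.14 to 0.20). The other ligands well above background, *Cd40lg*, *Cd70*, *Fasl*, *Tnfsf14*, *Tnfsf15* and *Tnfsf9*, had log2 fold changes from -0.21 to 0.15 and overlapping groups. Each of these had a 95% interval spanning 0. *Lta*, which lies beside *Tnf* and *Ltb* on chromosome 17, was well above background on 3 B41HET and 2 B41KO arrays, at -0.35 (adjusted p = 0.355 in limma). *Tnfsf10* (TRAIL), *Tnfsf8* and *Tnfsf18* were well above background on 3, 2 and 1 of the 6 arrays, and *Tnfsf11* (RANKL) and *Tnfsf4* (OX40L) on none.

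Among 5 death domain receptors, *Tnfrsf21* was called. It encodes death receptor 6, known for roles in axon pruning and in the brain's response to injury. Its brighter probe read 10.50, 10.64 and 10.51 in B41HET and 9.85, 9.68 and 9.71 in B41KO. The control samples stood 0.65 above the knockout samples at the nearest. The log2 fold change was -0.80 (SE 0.08, limma adjusted p = 0.00928), or 1.75-fold lower. It stayed called with each of the 6 samples left out, with adjusted p from 0.0303 to 0.0484. Its dimmer probe read 9.19, 9.02 and 8.78 against 8.54, 8.55 and 8.45, also without overlap and -0.48 on the log2 scale (adjusted p = 0.0779 in limma), so it was not called.

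*Tnfrsf1a*, which encodes the main TNF receptor of the death domain class, missed the threshold, and its 2 probes differed in sign. The brighter probe read 12.65, 12.47 and 12.39 in B41HET and 12.08, 12.12 and 12.002 in B41KO, a log2 fold change of -0.44 (95% CI -0.67 to -0.21, limma adjusted p = 0.0529). The dimmer probe read 8.96, 9.09 and 8.94 against 9.10, 9.26 and 9.19, a log2 fold change of 0.19 (limma adjusted p = 0.244). Both probes separated the genotypes, in opposite directions. *Tnfrsf10b* (the TRAIL receptor) had a brighter probe at 0.25 on the log2 scale (limma adjusted p = 0.260), *Tnfrsf25* was measured on 3 of 6 arrays and *Fas* on none.

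**Figure D2:**
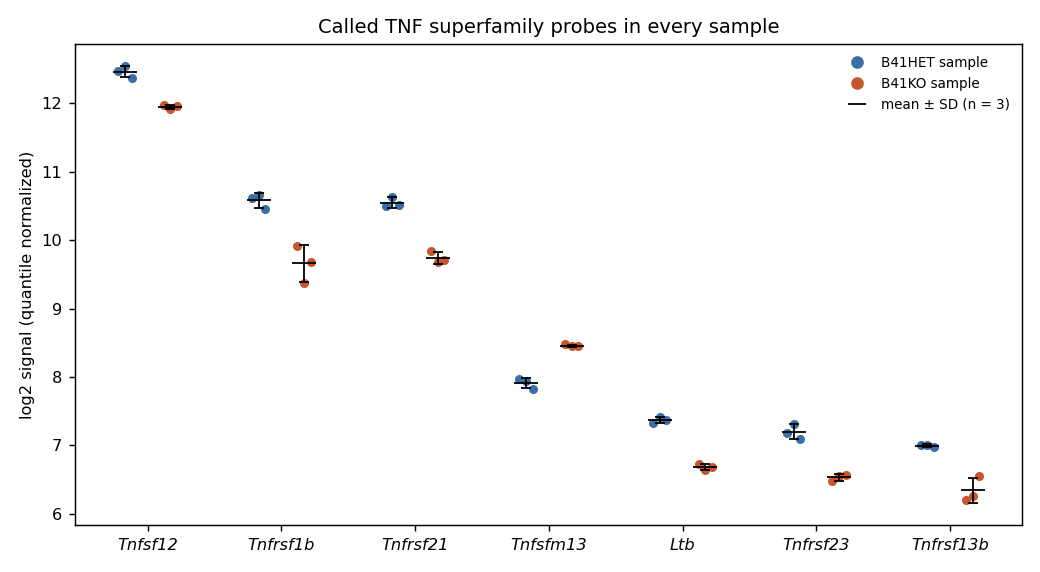
Log2 signal of the 7 called member probes in every sample, with blue points for the 3 B41HET and orange points for the 3 B41KO samples and bars for the mean and SD. The *Tnfrsf13b* points are its dimmer probe. The groups do not overlap for any of the 7, and *Tnfsfm13* alone is higher in B41KO.

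Of 15 TRAF-binding receptors, all well above background on 6 arrays by their brightest probe, 1 was called. *Tnfrsf1b* encodes TNFR2, which has no death domain and binds membrane-bound TNF best. Its signal was 10.62, 10.67 and 10.46 in B41HET and 9.92, 9.38 and 9.68 in B41KO. The groups lay 0.54 apart at the nearest, with the knockout samples spread more (SD 0.27 beside 0.11). This gave a log2 fold change of -0.92 (SE 0.15, limma adjusted p = 0.0298), or 1.90-fold lower. The call remained with B41KO replicate 1 left out and was lost with any of the other 5 samples out, where adjusted p reached 0.108.

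*Ltbr* encodes the receptor of membrane lymphotoxin and of LIGHT. It read 8.90, 8.79 and 8.86 in B41HET and 9.24, 9.43 and 9.28 in B41KO. All 3 knockout samples lay above the controls, by 0.33 at the nearest. Its log2 fold change was 0.46 (95% CI 0.26 to 0.67, limma adjusted p = 0.0347), below the fold threshold, so it was not called.

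*Tnfrsf13b* encodes TACI, a receptor for BAFF and APRIL. Its dimmer probe read 7.01, 7.0 and 6.97 in B41HET and 6.20, 6.27 and 6.55 in B41KO, a log2 fold change of -0.65 (SE 0.11, limma adjusted p = 0.0290). Its brighter probe read 10.17, 10.01 and 10.43 against 10.21, 10.12 and 10.23, a log2 fold change of -0.02 (95% CI -0.32 to 0.29). The dimmer probe separated the genotypes and the brighter one did not, so the gene counts as not called. The dimmer probe's call was lost with any sample other than B41KO replicate 3 left out.

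Several TRAF-binding receptors were nearly level. *Tnfrsf12a* (Fn14, the TWEAK receptor) read 8.58, 8.49 and 8.57 against 8.57, 8.49 and 8.49, with a 95% interval of -0.21 to 0.14. The brighter probe of *Tnfrsf14* (HVEM) had an interval of -0.21 to 0.15 and the brighter probe of *Tnfrsf13c* (BAFF receptor) of -0.35 to 0.26. The dimmer *Tnfrsf13c* probe was higher in all 3 B41KO samples without passing the test (0.22, 95% CI -0.01 to 0.44, adjusted p = 0.234 in limma). Other receptors had lower values that did not pass the test: *Cd40*, which read 6.35, 6.56 and 6.31 against 6.003, 6.17 and 6.04 (log2 fold change -0.34, limma adjusted p = 0.111), *Tnfrsf11a* (RANK, -0.40, adjusted p = 0.117), *Tnfrsf17* (BCMA, -0.21, adjusted p = 0.171), *Cd27* (-0.31, adjusted p = 0.396) and *Tnfrsf4* (OX40, -0.17, adjusted p = 0.312). In all 5 the groups did not overlap, as for 18.1% of all genes in that direction. By their brightest probes, *Tnfrsf18*, *Tnfrsf19*, *Tnfrsf8* and *Tnfrsf9* had log2 fold changes from -0.07 to 0.15. Of these, *Tnfrsf19* was higher in B41KO without overlap (0.15, adjusted p = 0.344 in limma), as for 14% of all genes. The dimmer probes of *Tnfrsf19* and *Tnfrsf9* read 0.25 and -0.58, with overlapping groups, and that of *Tnfrsf9* was well above background on 1 array.

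The decoy and orphan group held 4 genes. *Tnfrsf22*, *Tnfrsf23* and *Tnfrsf26* lie side by side on chromosome 7, and *Tnfrsf22* and *Tnfrsf23* are known decoys for TRAIL. The brightest *Tnfrsf23* probe read 7.18, 7.31 and 7.09 in B41HET and 6.47, 6.56 and 6.56 in B41KO. The knockout samples were all lower, by 0.53 at the nearest. Limma gave a log2 fold change of -0.67 (SE 0.08, limma adjusted p = 0.0150), or 1.59-fold lower. The call was lost without B41HET replicates 1 or 2 and without B41KO replicates 1 or 2. The gene's other 2 probes were not called, at -0.28 and 0.14, and the mean over its 3 probes was -0.27.

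*Tnfrsf22* read 9.88, 9.80 and 9.80 in B41HET and 9.42, 9.43 and 9.27 in B41KO on its brighter probe. All knockout samples were lower, with a log2 fold change of -0.46 (95% CI -0.65 to -0.26, limma adjusted p = 0.0315), below the fold threshold. *Tnfrsf26* was well above background on no array. These 3 receptors are closely related in sequence, so cross-hybridization between their probes cannot be told apart from a change in each gene. *Tnfrsf11b* (osteoprotegerin) was well above background on 5 of 6 arrays and read -0.14 on the log2 scale.

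Of the 40 genes, 14 had several probes. None was called on all of its probes, 3 were called on some and 11 on none, and for 6 the probes had both signs. The 3 were *Tnfrsf13b*, *Tnfrsf21* and *Tnfrsf23*. *Ltb*, *Tnfsf12*, *Tnfsfm13* and *Tnfrsf1b* had 1 probe each, so they had no second probe to compare with.

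**Figure D3:**
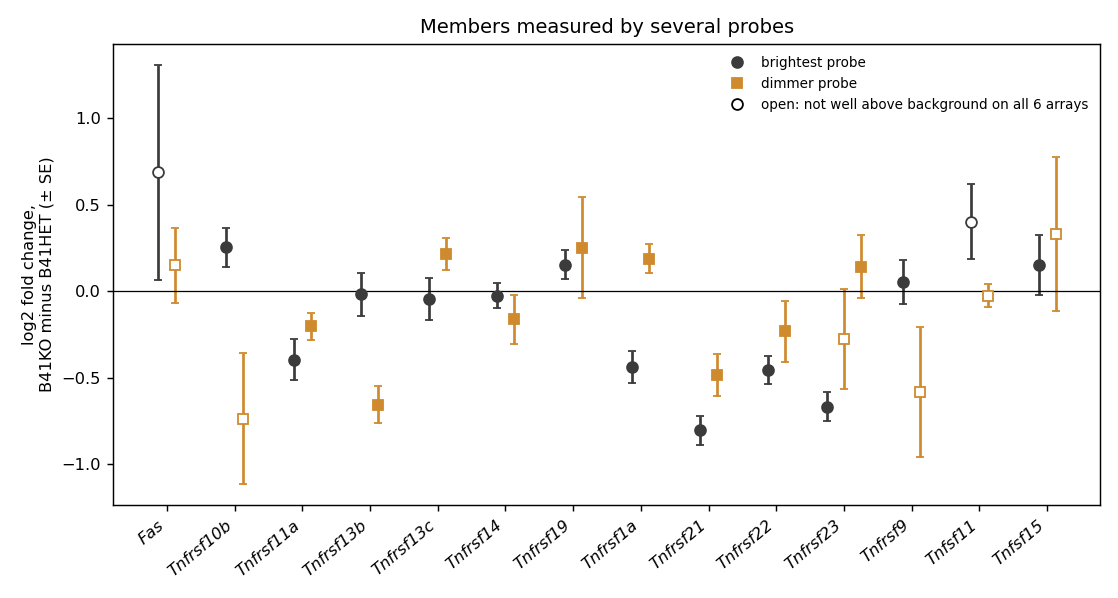
Log2 fold change, B41KO minus B41HET, of every probe of the 14 member genes with several probes, with bars for the standard error from limma. Black circles are the brightest and orange squares the dimmer probes, open symbols were not well above background on all 6 arrays, and for 6 genes the probes lie on both sides of 0.

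The pathway around these receptors was described from lists of 54 genes, of which 6 were called by their brightest probe, 5 lower and 1 higher (11.1%, beside 5.49% of all genes). The median log2 fold change of the 54 was -0.13. With any 1 of the 6 samples left out, 1 to 2 of the 54 were called (1.85% to 3.70%), beside 1.57% to 2.98% of all genes, so the share then lay near that of all genes. *Tnf* alone was called in all 6 of these fits, and *Nfkb2*, *Rbck1*, *Rela*, *Tab2* and *Traf5* were each called in 1 of them. *Tnf*, the founding ligand, read 13.05, 13.13 and 13.18 in B41HET and 12.43, 12.39 and 12.34 in B41KO. Between genotypes the log2 fold change was -0.74 (SE 0.07, limma adjusted p = 0.00812), or 1.67-fold lower, and its dimmer probe was called lower too (-0.65, adjusted p = 0.0103). With 1 sample left out, the adjusted p of its brighter probe ran from 0.0329 to 0.0487. *Tnf* and *Ltb* lie side by side on chromosome 17 and both fell.

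Of 15 TRAF adaptors and receptor complex genes, *Tab2* and *Traf5* were called lower. *Traf5* encodes an adaptor for several TNF receptors and fell on both its probes, by 0.54 and 0.51 on the log2 scale (limma adjusted p = 0.0293 and 0.0322). The brighter probe's call remained without B41KO replicate 2 and was lost with any other sample left out, and with normexp background correction it read -0.45, under the fold threshold. *Tab2*, which links TRAF6 to the kinase TAK1, fell by 0.65 on its brightest probe (adjusted p = 0.0297), while its 2 dimmer probes read -0.14 and -0.24 and the mean over its probes was -0.35 (adjusted p = 0.0754), not called. Its call remained without B41KO replicate 1 and was lost with any other sample left out. *Traf2* was at -0.30 (adjusted p = 0.124), *Ripk1* at 0.11 (adjusted p = 0.490).

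Of 12 NF-kB genes, *Rela* and *Nfkb2* were called lower by their brightest probes. *Rela* encodes the p65 subunit and read 11.86, 11.58 and 11.80 against 10.92, 11.003 and 10.95 (log2 fold change -0.79, limma adjusted p = 0.0134), but its dimmer probe was higher in all 3 B41KO samples (0.39, adjusted p = 0.0856), and the mean over both probes was -0.20. With 1 sample left out, the *Rela* call remained only without B41HET replicate 2. *Nfkb2*, the precursor of p52, fell on both probes, by 0.60 and 0.70 (limma adjusted p = 0.0386 and 0.0206). With 1 sample left out, its brighter probe was called only without B41HET replicate 3. Of the inhibitors, *Nfkbia* was at -0.04, and *Nfkbib* was -0.47 on its brightest probe and was called lower on its dimmer probe at -0.94. *Relb* was called lower on its dimmer probe only (-0.51, adjusted p = 0.0484).

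Among 8 linear ubiquitin genes, *Rbck1*, a subunit of the enzyme that builds linear chains, was called higher (0.52, adjusted p = 0.0216). It was not called under the 75th percentile shift (0.4985, just under the fold threshold), and with 1 sample left out it was called only without B41KO replicate 3. *Tnfaip3*, which removes ubiquitin, read -0.03. Of 8 death arm genes and 5 shedding genes, limma called none by the brightest probe, with 2 and 1 at an unadjusted p under 0.05, as were 25% of all genes. *Adam17*, the protease that sheds TNF, was -0.44 (adjusted p = 0.0856) on its brightest probe and 0.37 (adjusted p = 0.238) on the dimmer one.

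**Figure D4:**
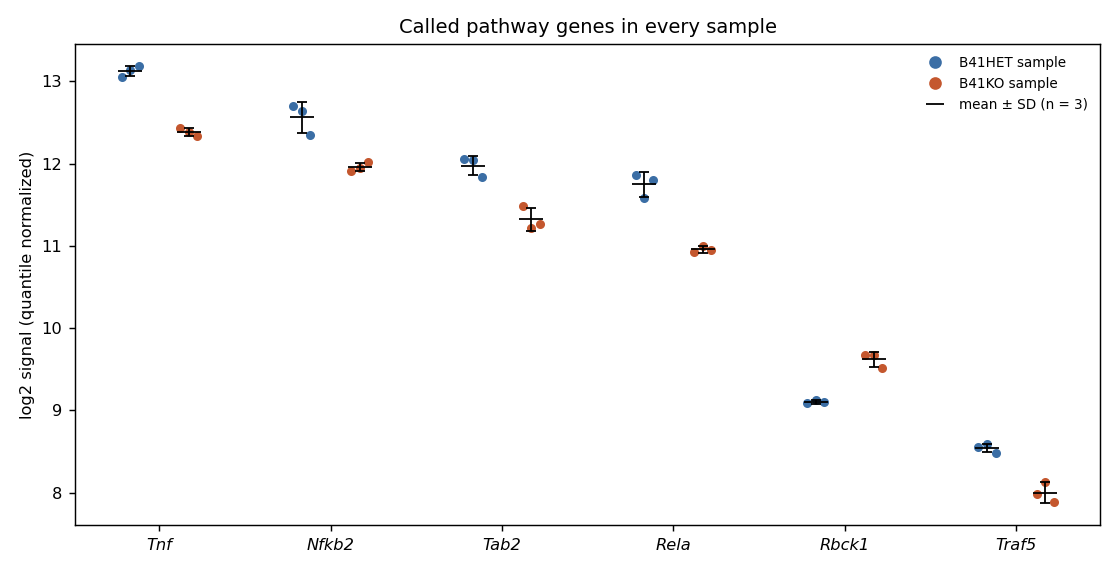
Log2 signal of the 6 called pathway genes in every sample, by their brightest probe, with blue points for the 3 B41HET and orange points for the 3 B41KO samples and bars for the mean and SD. *Rbck1* is higher in B41KO and the other 5 are lower, without overlap.

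Ligands and receptors were set side by side for 27 known pairs, of which 12 had both genes well above background on all 6 arrays. *Tnf* and *Tnfrsf1b* were both called lower, and *Tnfrsf1a* read -0.44 on its brighter probe without passing the test. *Ltb* was called lower while *Ltbr* read 0.46. *Tnfsf12* was called lower while *Tnfrsf12a* was at -0.03. *Tnfsf13b* and the brightest probes of its receptors *Tnfrsf13b*, *Tnfrsf13c* and *Tnfrsf17* read 0.03, -0.02, -0.05 and -0.21, none of them called.

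Markers of other cells moved with genotype, and in these bulk samples fewer cells of a type and less RNA per cell cannot be told apart. Of 11 neutrophil and monocyte markers, 8 were called lower, and the list median was -2.10. *Ccr2* (-0.30) and *Elane* (-0.04) were not called and overlapped. *Mmp8* was lower without overlap but not called (-0.61, limma adjusted p = 0.0535). The summed signal of the 11 markers ranged from 30538 to 34393 in B41HET and 5788 to 6301 in B41KO. Of 8 border macrophage markers, 5 were called lower, with a median of -1.18 and no overlap for any of the 8. Their summed signals were 2378 to 2572 and 1600 to 1794, most of it from *Stab1*, which was not called (-0.50). *Tnf*, *Ltb* and *Tnfrsf1b* are also expressed by neutrophils and monocytes, which the CD45low Cx3cr1+ sort is meant to leave out, and the part of these cells in the results was not tested. B-cell markers, which bear on *Tnfrsf13b*, *Tnfrsf13c* and *Tnfrsf17*, had summed signals of 1384 to 1582 and 1455 to 1491. Of these 10 markers, *Cd79a* and *Jchain* were called lower, and *Ms4a1* and *Fcmr* were above background on no array. T and NK cell markers summed to 1082 to 1156 and 1041 to 1084, with 1 of 11, *Il7r*, called lower. Endothelial markers summed to 1160 to 1266 and 407 to 460, with *Pecam1* (-1.68) and *Ly6c1* (-1.79) called lower. Most of each sum came from *Ly6c1* and *Pecam1*. *Cldn5* (-0.13) and *Kdr* (-0.01), well above background on all 6 arrays, were not called and overlapped, and *Cdh5*, *Emcn*, *Flt1* and *Tek* were above background on no array. Dendritic cell markers summed to 359 to 409 in B41HET and 206 to 235 in B41KO, without overlap, with 2 of 8, *Cd209a* (-1.74) and *Clec10a* (-1.92), called lower and a list median of -0.31. *Ccr7* was lower without overlap on its brightest probe but not called (-0.94, limma adjusted p = 0.0651). *Zbtb46* (0.01), *Flt3* (0.14) and *Itgae* (-0.22) were not called and overlapped, and *Xcr1* was above background on no array. Astrocyte markers summed to 1796 to 1880 in B41HET and 1991 to 2219 in B41KO, a higher sum without overlap, while 3 of the 6 genes lay above 0 and 3 below by their brightest probes and limma called 0. The 1 gene at an unadjusted p under 0.05, *Gja1*, was lower (-0.25). Of the 4 *Aqp4* probes, the brightest read 0.23 and the dimmer ones 0.70 (called higher), -0.38 and -0.11. The part of these cells was not tested either.

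The arrays lay in rows of 1 slide, with the 3 B41HET samples and B41KO replicate 1 in the first row and B41KO replicates 2 and 3 in the second. Within the first row, B41KO replicate 1 differed from the B41HET samples by -0.70 for *Tnfrsf21*, -0.64 for *Ltb*, -0.66 for *Tnfrsf1b*, -0.72 for *Tnfrsf23*, -0.79 for the dimmer *Tnfrsf13b* probe, -0.49 for *Tnfsf12* and 0.56 for *Tnfsfm13* on the log2 scale. Each had the sign of the main value, and none was called there (limma adjusted p 0.0870 to 0.180), with the lone sample taken to vary like the others.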

How the data were processed

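RNA from sorted microglia of 3 B41HET and 3 B41KO samples, each from several mice as the methods state, was measured on SurePrint G3 Mouse 8x60K arrays. The authors deposited scanner output holding background-subtracted, detrended intensities (Feature Extraction 11.5.1.1, per the file headers) that are not normalized between arrays. They also deposited a table of log2 values whose scale is not stated. Its columns have medians of 5.11 and rank probes as their own arrays do. The methods state that the array data were quantile normalized. The table was therefore taken to be log2 intensity after that step, for use as an alternative.

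Control spots were left out (59305 of 62976 spots kept), log2 processed signal was quantile normalized, 95 to 136 outlier spots per array were dropped, and spots were averaged per probe. Of 56605 probes, 56601 with values in at least 2 samples per genotype were tested. Limma 3.58.1 in R 4.3.3 was fitted with genotype as the only term, and p-values were adjusted by Benjamini-Hochberg over all probes. Figures used matplotlib 3.10.9 in Python 3.11.15, and the data.table package was version 1.17.8. Genes were named by matching accessions to a RefSeq table (33767 probes, 59.7%). The design names mm9, so gene coordinates are not given, and promoter windows carry their own GRCm38.p6 positions. The number of arrays limits the precision. The fit was tested on simulated data, where it recovered 54% of 200 changed probes, with 0 in the wrong direction and 5 false calls.

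Named genes were every member by role and a part of the pathway and marker genes. Per-sample values were given for called members and for some other well-measured members. Members, lists and pairs were chosen with earlier results of these data known. Alternatives were a 75th percentile shift, the authors' values, normexp with offset 50 on median signals, dim probes left out, outlier spots kept, trend and robust variance, replicate number or slide row as a block, calls without the fold threshold or at 1.5-fold, each sample left out, the mean over a gene's probes and its lowest-p probe. The 6 arrays shared 1 slide and 1 scan. Nothing in the labels ties samples to cultures or litters beyond pooling, so p-values measure the spread between these samples.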

Additional observations from a re-analysis of the deposited data

How the results depend on the processing

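The 7 called member probes had 1 sign under every alternative run, as did 34 of all 55 member probes. With normexp background correction, 3 member probes and 3 member genes were called, beside 1501 of all probes (2.65%), as *Ltb* (-0.50), the dimmer *Tnfrsf13b* probe (-0.43), *Tnfrsf23* (-0.39) and *Tnfsfm13* (0.47) fell under the fold threshold. With the slide row as a block, 0 member probes, 0 member genes and 0 pathway genes were called, while 448 of all probes (0.792%) were. With 1 sample left out, 1 to 4 member probes, 1 to 4 member genes and 1 to 2 pathway genes were called, and 796 to 1524 of all probes (1.41% to 2.69%), with fewer samples in the fit. The authors' values left *Tnfsf12* at -0.48, under the fold threshold. A 75th percentile shift moved the median of all probes from 0.01 to 0.13 and the share of higher calls from 33.7% to 46.1%, and the median of the member probes from -0.14 to -0.04. It called 7 member probes, 1 of them higher, and 5 pathway genes, all lower, as *Rbck1* (0.4985) was then just under the fold threshold. Without the fold threshold 9 member probes passed, beside 6.75% of all probes, and with a fold of 1.5 or more 5 did, beside 4.10%. The cause of these differences was not tested.

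With the replicate number as a block, 0 member probes, 0 member genes and 0 pathway genes were called, and 42 of all probes. Samples with the same number did not deviate together (r = 0.03, 0.01 and 0.05), and replicate 1 did not correlate best with its own number, so the numbers were not taken as a pairing. Dim probes limit *Fas*, *Tnfsf4*, *Tnfsf11* and *Tnfrsf26*, which were well above background on no array.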
